A study of Mus musculus with 11 samples.

Results

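Open chromatin was described around 10 imprinted genes, among them the long non-coding RNAs H19 and Meg3, in dopaminergic (DA) and serotonergic (5-HT) neurons of the mouse embryo. The genes were given as a list (H19, Igf2, Meg3, Dlk1, Cdkn1c, Peg3, Snrpn, Ndn, Mest and Grb10) and are 10 of the 37310 genes of the annotation used. Every deposited ATAC-seq region that overlapped the body of one of these genes or the 20 kb on each side was taken, which gave 58 of 131942 regions, 15 at promoters and 43 distal. An imprinted gene is expressed mainly from the copy inherited from one parent, and the choice is kept by DNA methylation at control regions that differ between the parental chromosomes. Some of these genes lie in clusters in which a maternally expressed non-coding RNA (H19 or Meg3) neighbours the gene of a paternally expressed growth factor or ligand (Igf2 or Dlk1). Several of them act on growth and on the differentiation of neurons.

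ATAC-seq marks accessible DNA by the insertion of sequencing adapters by a transposase. The DA group holds 3 libraries of GFP+ cells sorted from the ventral mesencephalon of TH-GFP embryos, and the 5-HT group 2 libraries of YFP+ cells sorted from hindbrain rhombomeres of Mash1-CRE x ROSA YFP embryos, all at E14.5. Each library came from its own sort of pooled tissue, no treatment was given, and the mothers of both groups were Swiss wild-type mice mated with males of the transgenic lines. In the first line, kept on a C57BL/6J background, the promoter of rat Th drives GFP. In the second line, the Cre recombinase is driven by Mash1, a factor also used by the progenitors of other neurons. Each library has a score for every region, and a score of 0 means that the library has no peak there. The deposited score has no named scale, and it does not separate the parental copies of a gene. In sorted pools, a low score from fewer cells with an open site and one from a site less open in each cell cannot be told apart.

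The libraries differed widely in yield. DA replicates 1, 2 and 3 had 52861, 93055 and 94351 peaks, and 5-HT replicates 1 and 2 had 38772 and 22879. The read depth is unknown. The deposited files show yield only as numbers of peaks, and the 5-HT sorts also gave fewer cells than the DA sorts. The part of cell input in the results was not tested. Presence in the windows of the 10 genes was therefore also compared at equal numbers, with each library reduced to its 22879 best-scoring peaks, as many as 5-HT replicate 2 has.

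The labels of the libraries were checked at the promoters of marker genes, with all peaks and raw scores. A promoter covered 1 kb before and 100 bp after a transcription start site (TSS). Of 10 markers of DA neurons, 10 had a peak at the promoter in each of the 3 DA libraries, 7 in 5-HT replicate 1 and 6 in 5-HT replicate 2. Their summed scores were 71.0, 77.5 and 65.5 in the DA libraries and 30.1 and 19.8 in the 5-HT libraries, and Pitx3 had the highest score of the list in each DA library. Th, which encodes the rate-limiting enzyme of dopamine synthesis, and Lmx1a, a factor of DA progenitors, were at 0 in both 5-HT libraries. The markers of 5-HT neurons gave a mixed picture. Of 8 such genes, of which Lmx1b is also in the DA list, 5, 6 and 5 had a peak in DA and 6 and 2 in 5-HT, with summed scores of 31.2, 33.2 and 29.2 against 30.0 and 11.1. Tph2, which encodes the neuronal enzyme of serotonin synthesis, had a peak in all 5 libraries (9.91, 7.59 and 11.1 in DA, 7.09 and 3.59 in 5-HT). Fev, a factor of serotonergic fate, had a peak only in 5-HT replicate 1, with a score of 3.88. Gata3, a factor of the same lineage, had its highest score in 5-HT replicate 2 (7.51, against 6.98, 4.52 and 4.65 in DA and 5.13 in 5-HT replicate 1). Nkx2-2 and Gata2 had theirs in 5-HT replicate 1 (5.21 and 4.20) and were at 0 in 5-HT replicate 2. Slc6a4, the serotonin transporter gene, had one in each DA library and in no 5-HT library. Slc22a3 was at 0 in every library. As a list, these markers did not separate the groups, and the 5-HT group is named below by its label. The paper reports more Tph2 in YFP+ and more Th in GFP+ cells than in the negative cells, by antibody staining and RT-qPCR. It also reports expression of DA and GABA marker genes in the YFP+ cells. For the GFP+ cells it reports high expression of GABA markers and proposes that some GABA neurons were sorted with them. Other cell types were looked up in the same way. Of 3 markers of astrocytes and radial glia, 3, 3 and 3 were present in DA and 3 and 1 in 5-HT, with summed scores of 18.7, 17.4 and 18.5 against 15.6 and 3.07, and Gfap had the highest score in all but 5-HT replicate 2. Of 4 genes of the oligodendrocyte lineage, 2, 3 and 3 were present in DA and 3 and 3 in 5-HT (summed scores 13.1, 16.6 and 17.4 against 14.1 and 11.6), with Olig1 highest in all 3 DA libraries and Sox10 at 0 throughout. Markers of other neurons were also open. Of 3 genes of GABA neurons, 3, 3 and 3 were present in DA and 2 and 2 in 5-HT (summed scores 14.9, 13.9 and 12.9 against 9.57 and 6.60). Of 2 genes of glutamate neurons, Slc17a7 was at 0 throughout, and Slc17a6, a vesicular glutamate transporter gene, scored 9.97, 12.9 and 12.8 in DA and 3.65 and 0 in 5-HT. In DA replicates 2 and 3, Slc17a6 was thus above Pitx3, which scored 11.9 and 9.28 there. Of the endothelial genes only Cldn5 was seen, of the pericyte genes 2 in DA replicate 2 and 1 in DA replicate 3, and the 3 genes of microglia and 2 of blood were at 0 in every library. The part of these cell types in the results was not tested.

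Most of the regions around the imprinted genes were seen in DA libraries. Of the 58 regions, 29, 51 and 40 had a peak in DA replicates 1, 2 and 3 (50%, 87.9% and 69.0%), and 22 and 13 had one in 5-HT replicates 1 and 2 (37.9% and 22.4%). The corresponding shares over all regions of the series were 40.1%, 70.5%, 71.5%, 29.4% and 17.3%. DA replicate 3, the library with the most peaks, was the only one with a smaller share of the imprinted regions than of all regions. The DA mean of 69.0% ± 18.97 (SD, n = 3) exceeded the 5-HT mean of 30.2% by 38.8 percentage points, and the same difference over all regions was 37.3 points. With equal numbers of peaks, the regions present numbered 17, 14 and 13 of 58 in DA and 15 and 13 in 5-HT. The difference was then 1.15 points, which is smaller than the spread between DA libraries (SD 3.59 points). It rested on single libraries, with -0.86 points without DA replicate 1, 1.72 without DA replicate 2, 2.59 without DA replicate 3 and 2.87 without either 5-HT replicate, the equal number being 38772 when 5-HT replicate 2 was left out. In each of the 5 libraries, the share of imprinted regions among these highest-scoring peaks lay above the 17.3% of all regions, but promoters are more frequent among the imprinted regions than in the series. Among promoter regions alone, the share was 53.3%, 46.7% and 53.3% in DA and 53.3% and 53.3% in 5-HT, below that of all promoter regions in each library (55.5%, 55.7%, 53.6%, 61.0% and 61.6%). Among distal regions it was 20.9%, 16.3% and 11.6% in DA and 16.3% and 11.6% in 5-HT, against 11.4%, 11.3%, 11.7%, 10.5% and 10.4%. These differences were not tested.

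**Figure D1:**
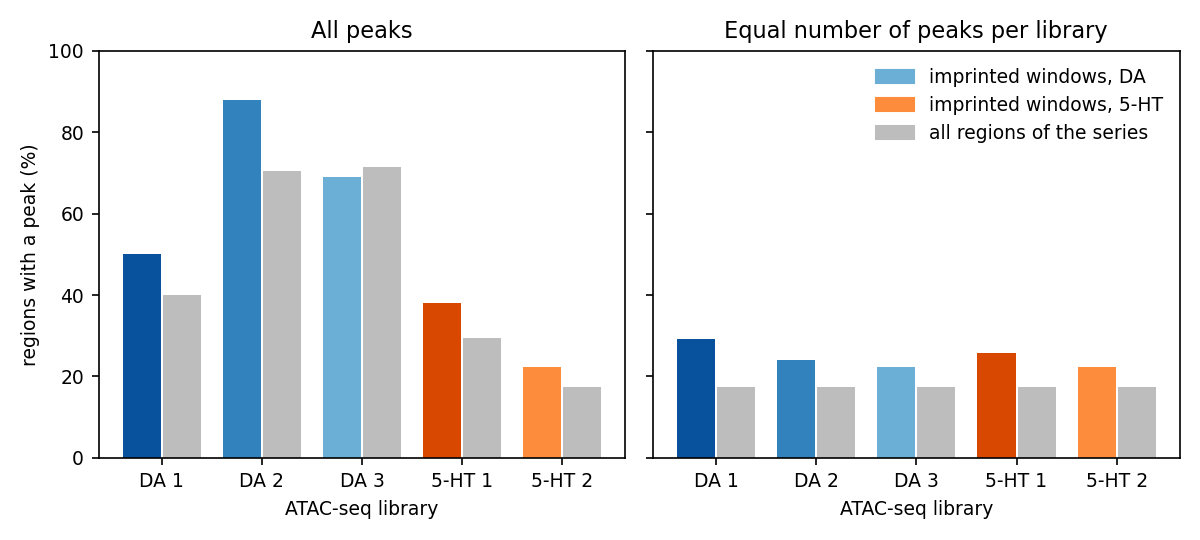
Share of regions with a peak in each ATAC-seq library, in percent, for the 58 regions in the windows of the imprinted genes (coloured bars) and for all 131942 regions (grey bars). With all peaks (left) the share runs from 22.4% in 5-HT replicate 2 to 87.9% in DA replicate 2, and at equal numbers of peaks (right) from 22.4% to 29.3%.

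Of the 58 regions, 10 were present in all 5 libraries (17.2%, against 12.8% of all regions). They belonged to 6 of the 10 genes. Promoter regions made up 8 of these 10, and 8 of the 15 promoter regions were present in all libraries, near the 58.8% of all promoter regions. Among the 43 distal regions, 2 were present in all libraries, and the share over all distal regions was 5.55%. Regions seen in each DA library and absent from both 5-HT libraries, called DA-only here, numbered 9 (15.5%, against 13.4% of all regions). Of these, 8 were distal, out of 43 (18.6%, against 14.6% of distal regions), and 1 was at a promoter, out of 15 (6.67%, against 5.51%). The opposite class, 5-HT-only, was empty, and it holds 0.389% of all regions of the series. These shares are near those of the whole series, and they describe regions, which are not replicates. At equal numbers of peaks, 7 regions were present in all libraries (12.1%, against 8.34% of all regions), 2 in the DA libraries only (3.45%, against 2.14%) and 2 in the 5-HT libraries only (3.45%, against 1.79%). The DA-only count also rested on single libraries. Leaving out DA replicate 1 gave 20 (34.5%, against 25.0% of all regions), and leaving out 5-HT replicate 1 gave 14 (24.1%, against 20.8%). The 5-HT-only count was 1 (1.72%) without 5-HT replicate 1, against 1.62% of all regions, and 1 without 5-HT replicate 2, against 3.86%.

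Of the remaining regions, 16 had a peak in a single library (27.6%, against 44.5% of all regions), and for 10 of these it was DA replicate 2 (17.2% of the 58, against 17.4%). Another 11 were present in DA replicates 2 and 3 only (18.97%, against 11.6%), and 6 in the 3 DA libraries and 1 of the 5-HT libraries (10.3%, against 8.49%). In 5-HT libraries alone there were 2, each in a single library (3.45%, against 4.71% of all regions with a peak in 1 5-HT library and no other). These differences were not tested. The regions seen in 5-HT alone were chr7:150631129-150631351 in the window of Cdkn1c (4.86 in 5-HT replicate 1) and chr12:110800249-110800387 in that of Meg3 (2.83 in 5-HT replicate 2).

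At their own promoters, 8 of the 10 genes had a region, and all but H19 and Igf2 had a peak there in DA replicates 1, 2 and 3 and in 5-HT replicate 1. In 5-HT replicate 2 it was 6 of 10. The share of all protein-coding genes with a peak at the promoter was 59.7%, 63.6% and 61.9% in DA and 58.2% and 49.5% in 5-HT. The promoters of Cdkn1c, Peg3, Snrpn, Ndn, Mest and Grb10 were present in all 5 libraries. These are 6 of the 8 protein-coding genes, and the share over all protein-coding genes was 48.3%. Of the non-coding H19 and Meg3, 0 of 2 were present in all libraries, against 24.6% of long non-coding genes. The promoters of 4 genes stayed present in all libraries at equal numbers of peaks (Cdkn1c, Peg3, Ndn and Grb10). Counted as regions, 5 of the 15 promoter regions did so (33.3%, against 44.2% of all promoter regions). Below, each gene is described by its promoter and distal regions present in most libraries and its DA-only regions, H19 and Meg3 also by landmark intervals, and any further region was chosen after its values were seen.

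**Figure D2:**
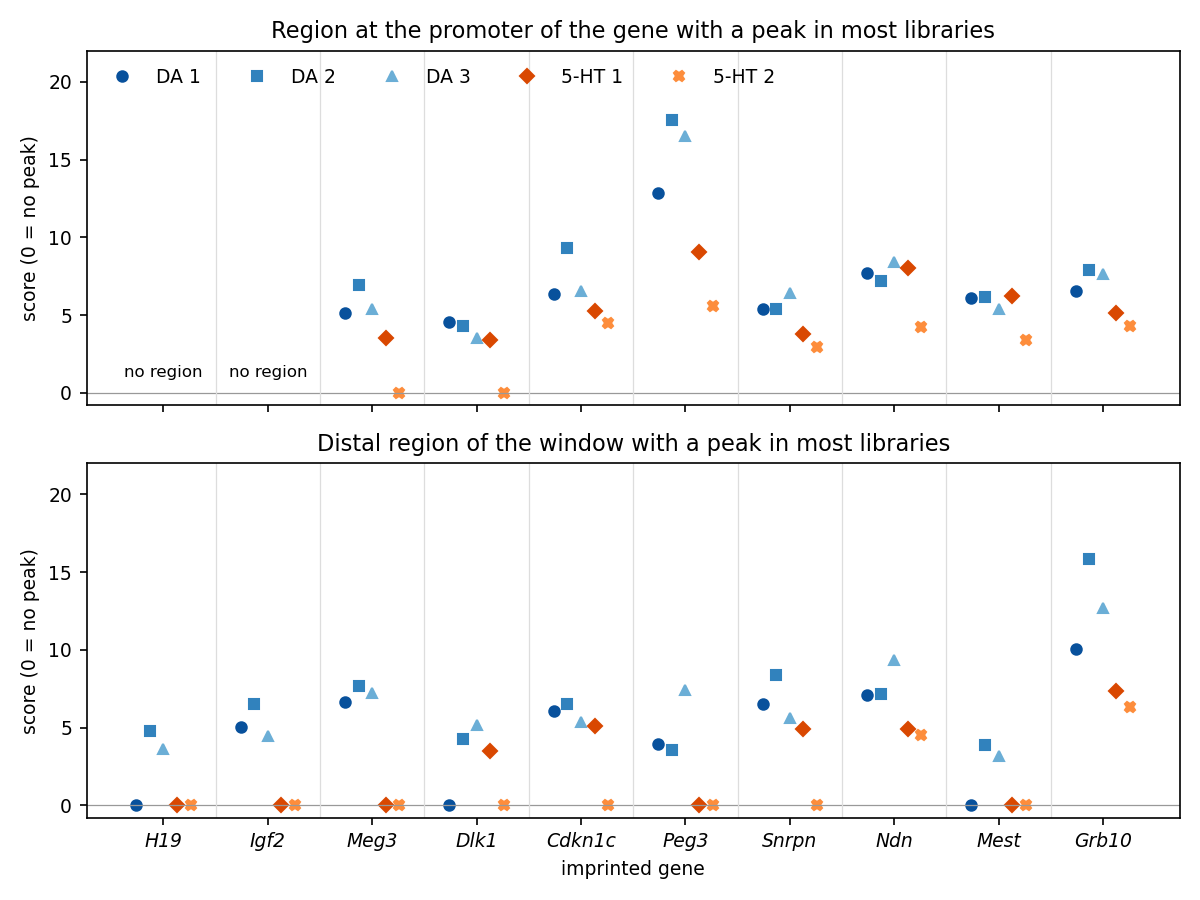
Score of each library (symbols, DA in blue and 5-HT in orange, 0 where there is no peak) at the promoter region and at the distal region present in most libraries, for each of the 10 imprinted genes. H19 and Igf2 have no region at their promoters, and the highest scores are those of the Peg3 promoter (up to 17.6) and of a distal region of Grb10 (up to 15.9). Where distal regions tie (2 of Snrpn, 4 of Meg3), the one with the highest DA mean is drawn.

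H19, a maternally expressed non-coding RNA, had no region at its promoter in any library. With the promoter widened to 2 kb before and 500 bp after the TSS, 1 library had a peak there. Its window on chromosome 7 held 3 distal regions, none with a peak in DA replicate 1 or in a 5-HT library. The landmark interval 2 to 4 kb upstream of the TSS (chr7:149766048-149768048), where the textbook imprinting control region of H19 and Igf2 lies, overlapped 2 of them. The region chr7:149767627-149767987, with its centre 3.76 kb upstream of the gene, scored 4.78 in DA replicate 2 and 3.65 in DA replicate 3. The region chr7:149765948-149766714 scored 4.37 in DA replicate 2 alone. The last region, chr7:149756636-149756771, lay 7.34 kb beyond the 5′ end in the direction of transcription and scored 3.14 in DA replicate 2. At equal numbers of peaks, none of the 3 regions was present in any library.

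The control region is known as a place where the insulator protein CTCF binds the unmethylated maternal copy and where ZFP57, a zinc finger protein that keeps imprints, recognises methylated DNA. The words TGCCGC for ZFP57 and GGNGGCAG for a part of the CTCF motif were searched in 300 bp around the centre of each region, on either strand. The upstream H19 region held 3 matches to each word. The window is shown because it holds both words side by side, with the matches in capitals. A match is a description of the letters and shows no binding. In the last group of capitals, a ZFP57 match on the other strand lies within the CTCF match. The build is mm9, and the window overlaps no annotated exon.
H19 upstream region, chr7:149767657-149767956, minus strand: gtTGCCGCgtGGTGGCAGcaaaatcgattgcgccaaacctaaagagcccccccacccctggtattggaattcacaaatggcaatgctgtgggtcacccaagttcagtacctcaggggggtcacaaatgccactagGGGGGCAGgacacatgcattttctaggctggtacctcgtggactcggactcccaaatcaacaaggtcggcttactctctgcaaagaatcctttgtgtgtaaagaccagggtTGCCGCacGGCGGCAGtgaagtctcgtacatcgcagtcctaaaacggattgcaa

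Igf2, the paternally expressed growth factor gene next to H19, had no region at its promoters either. Its window held 2 distal regions upstream of the gene. The region chr7:149861359-149861813, 8.86 kb upstream, scored 5.05, 6.54 and 4.49 in DA replicates 1, 2 and 3 and was at 0 in both 5-HT libraries. It was in no library at equal numbers of peaks. The other, 5.49 kb upstream, scored 4.25 in DA replicate 2 only. The promoter of Ins2, an imprinted insulin gene in the same window, had no peak in any library.

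Meg3, the maternally expressed non-coding RNA of the cluster on chromosome 12, had the most DA-only regions of the 10 genes, with 4 of its 7. A gene window with at least 4 such regions was found for 3.37% of 26225 protein-coding and long non-coding genes, a count chosen after the value of Meg3 had been seen. The region chr12:110788874-110789806, in an intron 10.1 kb into the gene, scored 6.68, 7.68 and 7.26 in DA replicates 1, 2 and 3 (7.21 ± 0.505, SD, n = 3). Both 5-HT libraries were at 0. It was still DA-only at equal numbers of peaks. Upstream of the gene by 7.48 kb, chr12:110771477-110771987 scored 7.81, 7.51 and 5.33 in the DA libraries. Within exons lay chr12:110780962-110781421 (6.24, 6.54 and 5.60) and chr12:110799164-110799776 (4.16, 5.60 and 5.83). These 3 regions were no longer present in all DA libraries at equal numbers of peaks, nor in a 5-HT library.

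The promoter of Meg3 itself was not restricted to the DA libraries. The region chr12:110778876-110779440, which spans the TSS, scored 5.16, 6.91 and 5.41 in the DA libraries, 3.54 in 5-HT replicate 1 and 0 in 5-HT replicate 2. A second promoter region, chr12:110778254-110778668, scored 3.30 in DA replicate 2 and 3.37 in 5-HT replicate 1. The interval 10 to 17 kb upstream of the TSS (chr12:110762211-110769211), where the textbook intergenic differentially methylated region of this cluster lies, overlapped 0 regions. The promoter of Rtl1, an imprinted gene in the window of Meg3, was at 0 in every library.

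Dlk1, which encodes a paternally expressed transmembrane ligand made by midbrain DA neurons among other cells, had no region present in all libraries. Its promoter region chr12:110690995-110691578 scored 4.53, 4.27 and 3.53 in the DA libraries, 3.37 in 5-HT replicate 1 and 0 in 5-HT replicate 2. The score of 3.37 is the lowest of any peak in that library. All 3 distal regions of Dlk1 lay upstream and were present in 1 or 2 DA libraries, with scores from 4.26 to 6.23, and 2 of them also in 5-HT replicate 1 (3.73 and 3.49). No region of Dlk1 was present in any library at equal numbers of peaks.

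**Figure D3:**
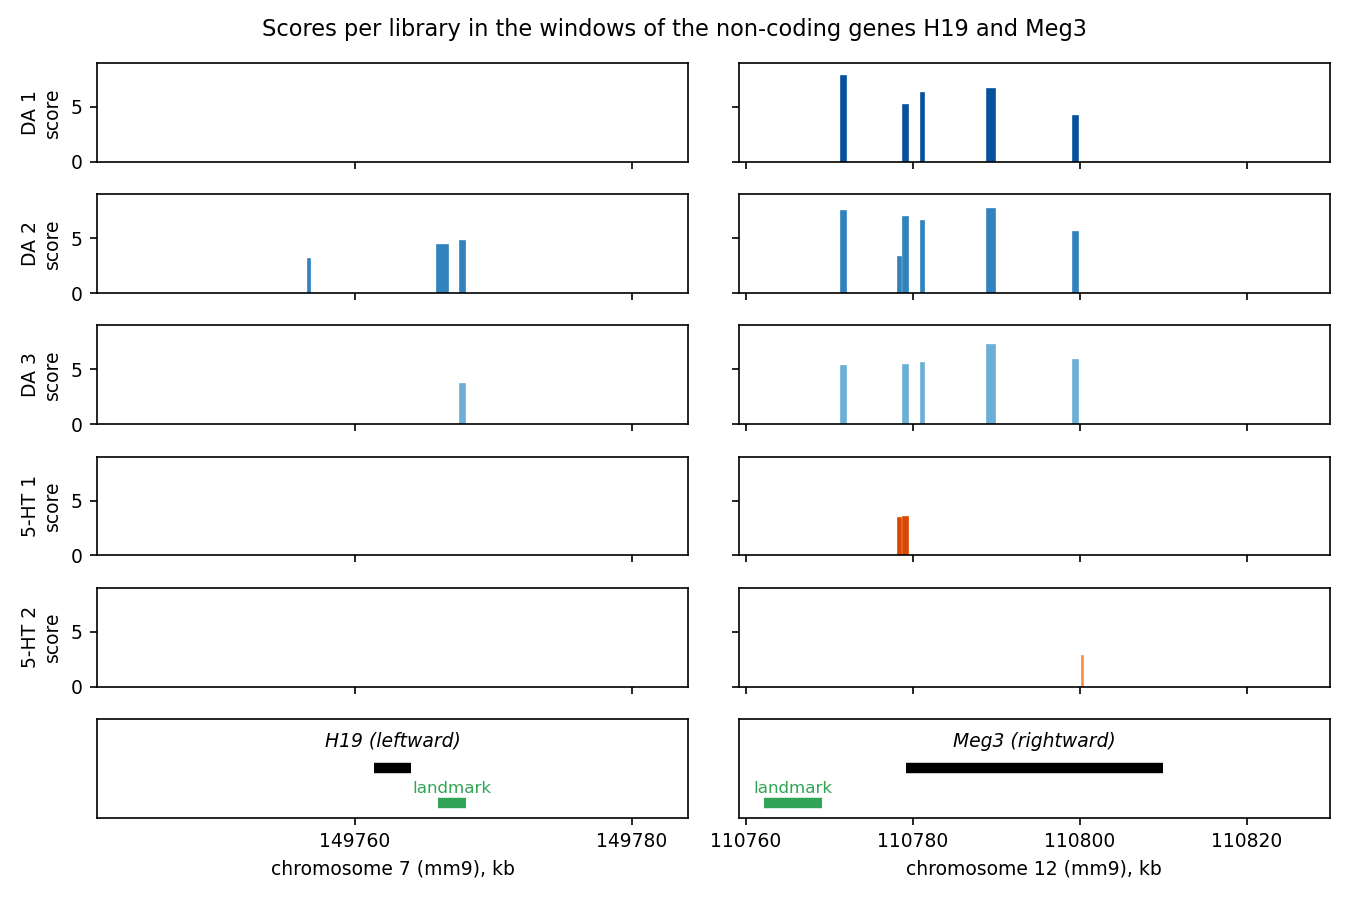
Scores of each library (bars, to the width of the region) along the windows of H19 on chromosome 7 and Meg3 on chromosome 12, with the gene in black and the landmark interval in green. H19 has peaks in DA replicates 2 and 3 only, while 4 of the 7 regions of Meg3 are DA-only.

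Cdkn1c encodes p57, a maternally expressed inhibitor of the cell cycle that takes part in the maturation of midbrain DA neurons. Its promoter region chr7:150646388-150647444 scored 6.33, 9.32 and 6.57 in the DA libraries and 5.26 and 4.51 in the 5-HT libraries. All DA scores were above both 5-HT scores, as in 81.1% of the regions of the series present in all libraries. A DA-only region 9.10 kb upstream, chr7:150655960-150656143, scored 8.82, 10.3 and 4.78 in the DA libraries. DA replicate 2 thus had the highest score at both places. A region 5.39 kb upstream, chr7:150652185-150652517, was present in the DA libraries (6.06, 6.52 and 5.34) and in 5-HT replicate 1 (5.09).

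Grb10, an adaptor protein that restrains insulin signalling, is expressed from the paternal copy in neurons and from the maternal copy in most other tissues. Its window, 148 kb long, held 15 regions, the most of the 10 genes, and none was DA-only. The distal region chr11:11873266-11873854, in an intron 65.1 kb into the gene, scored 10.1, 15.9 and 12.7 in the DA libraries and 7.37 and 6.34 in the 5-HT libraries. It was one of 2 distal regions of the list present in all libraries, and it kept its place among the highest-scoring peaks of each. The neighbouring region chr11:11874828-11875196, 63.7 kb into the gene and chosen after its values were seen, scored 6.85, 7.79 and 7.94 in the DA libraries, 0 in 5-HT replicate 1 and 2.89 in 5-HT replicate 2.

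The promoters of Grb10 differed between themselves. The internal promoter region chr11:11925360-11927119 scored 6.56, 7.89 and 7.66 in the DA libraries and 5.15 and 4.32 in the 5-HT libraries. The upstream promoter region chr11:11936435-11938270 scored 3.59, 3.77 and 3.84 in the DA libraries and 4.52 and 2.86 in the 5-HT libraries. Here the DA scores lay between the 5-HT scores. At equal numbers of peaks the upstream promoter was present in both 5-HT libraries and in no DA library, although all 5 libraries had a deposited peak there. The last promoter region, chr11:11939286-11940199, with its centre 1.06 kb before the 5′ end of the gene, scored 3.55 and 3.77 in DA replicates 2 and 3 and was at 0 in the other libraries.

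Peg3 encodes a paternally expressed zinc finger protein. Its promoter region chr7:6679763-6683942 was the widest of the 58, at 4180 bp, and scored 12.9, 17.6 and 16.5 in the DA libraries and 9.04 and 5.57 in the 5-HT libraries. These scores exceeded those of 96.5%, 98.5% and 98.9% of the peaks of the DA libraries and of 95.8% and 86.3% of those of the 5-HT libraries. The promoter of Zim1, a neighbouring imprinted gene in the same window (chr7:6648905-6649652), scored 15.1, 14.6 and 15.4 against 9.67 and 6.92. In both regions all DA scores were above both 5-HT scores, as in 81.1% of the 16856 regions of the series present in all libraries. A DA-only region 5.50 kb upstream of Peg3, chr7:6688442-6688817, scored 3.92, 3.55 and 7.44 in the DA libraries.

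**Figure D4:**
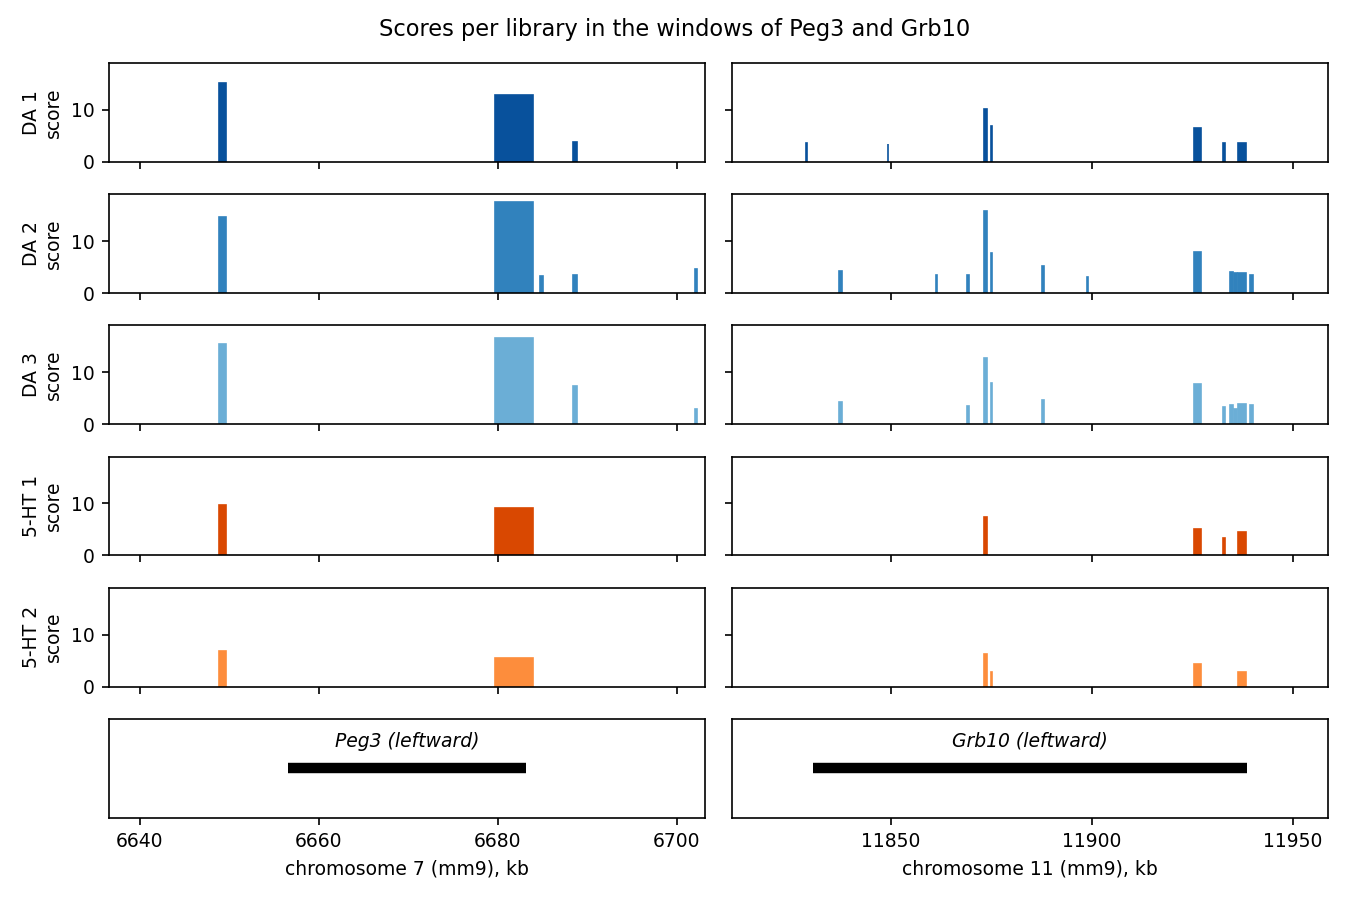
Scores of each library (bars, to the width of the region) along the windows of Peg3 on chromosome 7 and Grb10 on chromosome 11, with the gene in black. The Peg3 and Zim1 promoters and the distal region of Grb10 65.1 kb into the gene stand out in all 5 libraries, the weaker regions mainly in DA replicates 2 and 3.

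Mest, a paternally expressed gene for an enzyme of the hydrolase fold, has an upstream and an internal promoter, and they differed. The internal promoter region chr6:30686505-30688421 was present in all libraries, with scores of 6.11, 6.17 and 5.41 in DA and 6.24 and 3.40 in 5-HT. The groups overlapped there. The upstream region chr6:30672146-30672688, with its centre 1.13 kb before the 5′ end of the gene, scored 7.58, 8.29 and 6.88 in DA (7.58 ± 0.702, SD, n = 3), with both 5-HT libraries at 0. It was the only DA-only promoter region among the 58 and, with the intronic region of Meg3, one of the 2 that stayed DA-only at equal numbers of peaks. The remaining promoter region of Mest was present in DA replicates 2 and 3 only (3.27 and 3.36). So was the distal region of Mest present in most libraries, chr6:30659217-30659715, 14.1 kb upstream (3.92 and 3.18), and it was in no library at equal numbers of peaks.

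Snrpn, a paternally expressed gene for a splicing protein, and Ndn, which encodes necdin, a paternally expressed protein of differentiating neurons, lie in the same domain of chromosome 7. At the internal promoter of Snrpn, chr7:67147797-67150170, the scores were 5.38, 5.38 and 6.41 in DA and 3.80 and 2.97 in 5-HT. At the 5′ end of the annotated gene, chr7:67284795-67285267 scored 6.09, 6.16 and 5.99 in DA, 4.91 in 5-HT replicate 1 and 0 in 5-HT replicate 2. Of the 3 distal regions of Snrpn, all in introns, 2 were present in 4 libraries each, and they differed between themselves. The region chr7:67242173-67242650, 42.7 kb into the gene, scored 6.52, 8.40 and 5.61 in DA, 4.89 in 5-HT replicate 1 and 0 in 5-HT replicate 2. At equal numbers of peaks it was present in 2 DA libraries and 1 5-HT library. The region chr7:67267913-67268260, 17.02 kb into the gene, scored 0, 3.21 and 3.32 in DA and 5.29 and 2.86 in 5-HT. Its highest score was that of 5-HT replicate 1, the groups overlapped, and at equal numbers of peaks it was present in the 5-HT libraries only. The annotation starts Snrpn far upstream of its best known promoter, and whether the intronic regions and the region at the 5′ end belong to Snrpn or to another transcript was not tested. The promoter of Ndn, chr7:69493001-69494195, scored 7.73, 7.19 and 8.44 in DA and 8.01 and 4.23 in 5-HT, so that 5-HT replicate 1 lay within the DA range. The other distal region of the list present in all libraries lay 17.2 kb downstream of the 5′ end of Ndn, chr7:69510117-69510573, with scores of 7.09, 7.15 and 9.34 in DA and 4.94 and 4.52 in 5-HT. A DA-only region lay 3.11 kb downstream, chr7:69496071-69496469 (3.57, 4.88 and 5.67).

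In the 10 regions present in all libraries, each library had a score to compare. All 3 DA scores were above both 5-HT scores in 7 of the 10, against 81.1% of the 16856 regions of the series that were present in all libraries. The raw log2 score was higher in DA by a median of 0.77 over these 16856 regions. The libraries were brought to the same distribution (quantile normalization) before the test, and the differences below are relative to the other regions. limma, a two-sided moderated test with Benjamini-Hochberg adjustment over the 16856 regions at a threshold of 0.05, called 62 regions higher in DA (0.368%) and 115 lower in DA (0.682%). None of the 10 imprinted regions was called, and 0 of the 10 had an unadjusted p under 0.05, against 2953 of all regions. In this fit, the largest difference among them was that of the Ndn promoter, with normalized log2 scores of 2.76, 2.43 and 2.78 in DA and 3.33 and 2.84 in 5-HT. The DA minus 5-HT difference was -0.42 (SE 0.19, limma adjusted p = 0.287). With a library left out it ran from -0.67 (without 5-HT replicate 2) to -0.19 (without 5-HT replicate 1). The Snrpn internal promoter differed the other way, by 0.33 (SE 0.16, limma adjusted p = 0.318), with 2.29, 2.13 and 2.44 in DA and 1.97 and 1.95 in 5-HT, and was -0.038 with median centring. The promoters of Cdkn1c and Peg3, where all raw DA scores were higher, differed by -0.21 and 0.17 after normalization (limma adjusted p = 0.572 and 0.632), with groups that overlapped. These also rested on single libraries, with -0.40 and 0.32 without 5-HT replicate 1 and -0.048 and 0.048 without 5-HT replicate 2, none of them called. The median difference was -0.11 over the 10 regions and 0.01 over all regions. Of the 10 differences, 2 were above 0 and 8 below, and 4 and 6 without DA replicate 2. With log2 scores centred on the median of each library in place of quantile normalization, the upstream promoter of Grb10 was called lower in DA (difference -0.75, limma adjusted p = 0.0127), among 416 regions higher and 1298 lower (7.70% of all regions). Its scores lay near the lowest of a peak in 5-HT replicate 2 (2.86, lowest 2.83) and DA replicate 1 (3.59, lowest 3.45). The part of this in the call was not tested. With quantile normalization the difference was -0.23, and 0.059 without 5-HT replicate 1. In the fit with median centring, 2 of the 10 imprinted regions had an unadjusted limma p under 0.05, against 4563 of all regions. With the replicate number as a block it was 1 of the 10, against 1898 of all regions. The number of regions called over the series rested on single libraries. limma called 0 regions without DA replicate 1 (2094 with an unadjusted p under 0.05), 0 without DA replicate 2 (1995), and 2 without DA replicate 3. The regions tested changed with the library, since a region had to be present in all those kept. Without 5-HT replicate 1, limma called 2771 of 18195 (15.2%), and without 5-HT replicate 2, 2053 of 26717 (7.68%). Of the imprinted regions it called 1 of 11 (9.09%) and 0 of 15. In the former case, the region chr11:11874828-11875196 of Grb10 could be tested and was called higher in DA (0.83, limma adjusted p = 0.0104), as were 7.39% of all regions tested, with the lone 5-HT library assumed to vary like the DA libraries. A p above the threshold does not show that the scores were equal, and an exact permutation test of 3 against 2 libraries cannot go below 0.1.

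The promoter regions of the imprinted genes present in all libraries were wider than those of the series and had a lower ratio of CpG dinucleotides, by their medians. Their median width was 1798 bp over the 8 regions, against 1273 bp over all promoter regions of this class, and their median ratio of observed to expected CpG was 0.623 (from 0.404 to 1.01), against 0.720. The 8 distal DA-only regions had a median width of 457.5 bp and a median CpG ratio of 0.293, against 518 bp and 0.228 for all distal DA-only regions. The DA-only promoter region of Mest had a ratio of 0.107.

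The word TGCCGC of ZFP57 lay in the central 300 bp of 6 of the 8 promoter regions present in all libraries (75.0%), and in 27.8% of all promoter regions of this class. Over all 15 promoter regions it was 7 (46.7%, against 22.9%), and over the 43 distal regions 3 (6.98%, against 5.01%), of which 2 are those of the H19 landmark interval. The 6 promoter regions are those of Zim1 and Peg3, the internal promoters of Snrpn and Mest and the internal and upstream promoters of Grb10, and the remaining one of the 7 spans the TSS of Meg3. Other promoter regions of Snrpn, Mest, Grb10 and Meg3 did not hold the word in their central 300 bp, nor did those of Dlk1, Cdkn1c and Ndn. Wider regions were not searched beyond the central 300 bp for any of the words. The word ATGGCG of YY1 was found in 1 of the 15 promoter regions (6.67%, against 15.7%) and in 0 of the 43 distal ones, against 4.34%. The part of the CTCF motif was found in 2 of the 15 promoter regions (13.3%, against 18.6%) and in 7 of the 43 distal ones (16.3%, against 11.3%). Among the 8 promoter regions present in all libraries, it was in 2 (25.0%, against 19.7%) and the YY1 word in 0 (against 20.1%). These counts are descriptions of few regions, with no test.

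The 9 matches of the ZFP57 word in these 6 promoter regions are shown with 12 bases on each side, because the word recurs at the promoters of different imprinted genes. The word is in capitals, each line is written on the strand that carries the word, and positions are in mm9.
Zim1 promoter, chr7:6649146-6649175, plus strand: cccggagtggaaTGCCGCgggatgactttc
Peg3 promoter, chr7:6681985-6682014, minus strand: tcagtcttagttTGCCGCacgaatgctgcc
Snrpn internal promoter, chr7:67149053-67149082, minus strand: ctggagtgctgtTGCCGCggcctgcgggct
Mest internal promoter, chr6:30687421-30687450, minus strand: gtacacttccttTGCCGCagcacaacgtgg
Mest internal promoter, chr6:30687594-30687623, plus strand: agggcttggggtTGCCGCgcattggtgacc
Grb10 internal promoter, chr11:11926111-11926140, minus strand: gttggcgcgtgtTGCCGCgtgttggcccgt
Grb10 internal promoter, chr11:11926216-11926245, plus strand: ccgacagggccgTGCCGCtcagagacgaat
Grb10 internal promoter, chr11:11926238-11926267, minus strand: cgcgtgccggccTGCCGCgatcattcgtct
Grb10 upstream promoter, chr11:11937382-11937411, plus strand: cccttcccttccTGCCGCctccccgcaccc

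The central 300 bp of 3 regions are given for contrast. The intronic region of Meg3 and the upstream region of Mest are the regions that stayed DA-only at equal numbers of peaks, and the distal region of Grb10 was open in all libraries. In the first 2 sequences, capitals mark CpG dinucleotides, of which Meg3 has 7 and Mest 0. In Grb10, capitals mark the single match to the part of the CTCF motif, which is on the other strand. None of the 3 windows holds the ZFP57 word, and none overlaps an annotated exon. Build mm9 was used.
Meg3 intronic region, chr12:110789190-110789489, plus strand: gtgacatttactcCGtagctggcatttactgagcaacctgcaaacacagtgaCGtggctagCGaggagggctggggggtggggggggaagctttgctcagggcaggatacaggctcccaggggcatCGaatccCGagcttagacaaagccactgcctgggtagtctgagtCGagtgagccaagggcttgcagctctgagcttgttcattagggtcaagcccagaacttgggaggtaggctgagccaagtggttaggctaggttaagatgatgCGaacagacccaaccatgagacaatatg
Mest upstream region, chr6:30672267-30672566, plus strand: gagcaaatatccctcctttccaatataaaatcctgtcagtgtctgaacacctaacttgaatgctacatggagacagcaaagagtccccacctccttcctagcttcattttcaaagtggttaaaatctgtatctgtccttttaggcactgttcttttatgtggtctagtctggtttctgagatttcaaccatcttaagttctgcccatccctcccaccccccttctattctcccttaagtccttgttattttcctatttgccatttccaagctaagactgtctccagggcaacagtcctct
Grb10 intronic region, chr11:11873410-11873709, minus strand: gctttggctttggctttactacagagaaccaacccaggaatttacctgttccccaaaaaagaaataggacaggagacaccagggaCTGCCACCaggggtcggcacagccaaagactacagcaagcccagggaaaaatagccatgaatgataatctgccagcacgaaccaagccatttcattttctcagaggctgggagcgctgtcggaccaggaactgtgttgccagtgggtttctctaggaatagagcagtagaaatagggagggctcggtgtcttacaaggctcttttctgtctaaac

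Other imprinted genes were looked up at their promoters only, from a list of 54 names, of which 50 were in the annotation. A promoter region present in all libraries was found for 28 of the 50, for 27 of 46 protein-coding genes (58.7%, against the 48.3% of all protein-coding genes given above) and for 1 of 4 non-coding genes. The genes are not all separate, since Peg10 and Sgce, Nnat and Blcap, and Commd1 and Zrsr1 share a promoter region each. Another 11 had a peak in some libraries, and 11 in none. Per library, 31, 35 and 35 of the 46 protein-coding genes had a peak in DA (67.4%, 76.1% and 76.1%) and 32 and 28 in 5-HT (69.6% and 60.9%). Over all protein-coding genes the shares were 59.7%, 63.6% and 61.9% in DA and 58.2% and 49.5% in 5-HT, and these differences were not tested. Magel2, next to Ndn, scored 6.02, 7.79 and 6.15 in DA and 5.17 and 3.93 in 5-HT, and Copg2, next to Mest, 8.001, 10.5 and 7.77 in DA and 6.05 and 3.77 in 5-HT. Slc22a18, next to Cdkn1c, was at 0 in every library. Of the 4 non-coding genes, named here after their values were seen, Nespas was present in all libraries, Airn in all but 5-HT replicate 2, and Rian and Mirg, neighbours of Meg3, in none. A DA-only promoter region was found for 2 genes, both protein-coding (4.35%, against 3.57% of all protein-coding genes). These genes, Gnas and Ddc, each also had a promoter region present in all libraries, and they were named after their values were seen, because the count is small. Ddc encodes the enzyme that makes both dopamine and serotonin and is also in the list of DA markers. No promoter of the list was in the 5-HT-only class, which was found for 0.0626% of all protein-coding genes.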

How the data were processed

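ATAC-seq libraries of sorted DA (n = 3) and 5-HT (n = 2) neurons were used. The 6 RNA-seq samples were not analysed here. The authors trimmed reads (Trimmomatic, FastQC), aligned them to mm9 (Bowtie2), removed duplicates (Picard), called peaks per library (MACS2), merged neighbouring peaks (BEDOPS) and annotated them (HOMER). Versions and the calling threshold are not given in the sources used here. The deposited score of each of 131942 shared regions has no named scale. In 1 line a misspelled chromosome name was read as chrY. Start positions were read as 0-based and are printed 1-based.

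Regions overlapping the 10 gene bodies of GENCODE vM1 ± 20 kb by at least 1 bp were taken, and called promoter regions when they overlapped a promoter of any gene. Named regions were, for each gene, the region at its own promoter and the distal region present in most libraries (ties: highest lowest score, which left 2 for Snrpn and 4 for Meg3), every DA-only region and those in the landmark intervals. Any other region described was chosen after its values were seen. The members and the lists of genes and words were chosen with earlier results of these data known. Score differences were fitted with limma 3.58.1 (R 4.3.3) on log2 score over all regions with a peak in every library, each of which had to pass the peak threshold in every library. Python 3.11.15, pandas 2.3.3, NumPy 2.4.6, pysam 0.24.0, samtools 1.23.1 and matplotlib 3.10.9 were used. On simulated scores for 16856 regions, 91.0% of 200 regions changed by 2 on the log2 scale were recovered by limma. Changes of the size of the imprinted regions (-0.42 to 0.33 in the main fit) were not simulated, so their recovery is unknown. Alternatives changed the window, merging, number of peaks, promoter, normalization, filter, replicate block and libraries.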

Additional observations from a re-analysis of the deposited data

How the results depend on the processing

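Merging regions less than 100 bp apart changed no count. A window of 50 kb, which held 100 regions in place of 58, kept each count within 1.5 times (15 in all libraries, 13 DA-only, 0 5-HT-only). In gene bodies alone, which 31 of the regions overlapped, the DA-only count was 3, and 13.4% of all regions of the series are DA-only. The difference in shares at equal numbers of peaks was -4.30 points in gene bodies. At equal numbers of peaks, the difference in shares was 1.15 points, with 2 DA-only and 2 5-HT-only regions. With the 10000 highest-scoring peaks of each library it was -3.45 points, with 3 regions in all libraries, 0 DA-only, 1 5-HT-only and 1 promoter (Peg3) in all libraries. The shares of these classes over all regions were not counted at this number of peaks. With the centre of the region required in the promoter, 3 promoters were in all libraries (Cdkn1c, Mest and Grb10). The centres of the Peg3 and Ndn regions lay 1.28 kb and 434 bp past the nearest TSS, outside the promoter.

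The replicate numbers only name the samples. Differences between replicates 1 and 2 correlated across regions by 0.01 between the groups. With the replicate block, the pair differences were 38.8 points and, at equal numbers of peaks, 2.59 points, and limma called 2 regions in place of 177, none of them imprinted. limma called 1714 regions with median centring, 1 of them imprinted (Grb10), and 10 with the filter on low scores.

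Leaving out each library in turn, limma called 0 to 2771 regions and 0 to 1 imprinted regions, the latter in Grb10 without 5-HT replicate 1. The difference in shares at equal numbers of peaks was -0.86 to 2.87 points. The DA-only count was 9 to 20 and the 5-HT-only count 0 to 1 (1 without either 5-HT library). Of 84 differences of single imprinted regions, none called at the start, 9 changed sign. Median centring gave 0.086 for the distal region of Grb10, 0.073 for the Zim1 promoter and -0.038 for the Snrpn promoter. With a library left out, the ranges were -0.15 to 0.13 for the distal region of Grb10 (0.064 without DA replicate 1, 0.13 without 5-HT replicate 2), -0.63 to 0.059 for its upstream promoter, -0.16 to 0.034 for the Zim1 promoter and -0.30 to 0.17 for the distal region of Ndn (0.056 without DA replicate 2). Without a change of sign, the promoters ranged from -0.40 to -0.048 for Cdkn1c, 0.048 to 0.32 for Peg3, 0.24 to 0.37 for Snrpn, -0.67 to -0.19 for Ndn, -0.62 to -0.070 for Mest and -0.31 to -0.00083 for the internal promoter of Grb10. The cause of these changes was not tested. The number of libraries with a peak at the promoter of a single gene moved in 15 of 40 values. Peak lists hold no read counts, so absence from a 5-HT library cannot be told from a low yield.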
